A study of Mus musculus with 8 samples.

Results

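The 10 genes Nfkb1, Nfkb2, Rel, Relb, Nfkbia, Nfkbie, Nfkbiz, Tnfaip3, Birc3 and Traf1 encode subunits of the transcription factor NF-kappaB and proteins that NF-kappaB itself induces and that restrain or relay its signal. They were chosen by symbol, all 10 were found among the 25239 gene symbols counted, and all 10 were expressed enough to be tested. RNA was measured in 8 libraries of primary cells from mouse calvaria, the bony skull cap, described as osteoblasts. Control libraries 1 to 4 came from wild-type littermates, and the libraries labelled knockout, also numbered 1 to 4, came from mice labelled OSX-SphK2. Sphk2 encodes sphingosine kinase 2, which makes the lipid mediator sphingosine 1-phosphate, and Osx is osterix, the product of Sp7, on which osteoblast formation depends, so the label names a deletion of Sphk2 under Osx. The sources used here do not give the alleles, the ages or sexes of the mice, or the number of animals behind a library. By its title, the series asks whether osteoblasts regulate the development of neutrophils.

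NF-kappaB works as pairs of subunits. In resting cells IkB proteins hold the pairs in the cytoplasm, and signals from receptors for TNF, interleukin-1 or microbial products lead IkB kinase to mark the IkB proteins for destruction, which frees the pairs to enter the nucleus. In a slower, noncanonical arm the precursor encoded by Nfkb2 is processed and partners RelB. Several of the genes that NF-kappaB induces are its own brakes, so their RNA is widely used as a readout of the pathway. In bone, NF-kappaB is best known for its part in the formation of osteoclasts from macrophage precursors under RANK ligand.

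Total counts ran from 14347495 to 19065421 per library. Sphk2 stood at 75.8, 64.2, 82.5 and 133.8 CPM in the 4 controls and at 69.7, 72.3, 72.1 and 131.1 CPM in knockout-labelled 1 to 4. CPM is counts scaled by library size. The targeted gene thus did not check the genotype labels, although a count over the whole gene includes reads outside a deleted part. Of the 4159 exon bases of Sphk2, 539 are shared with Dbp and 373 with Rpl18 on the opposite strand, and no source used here says whether counting used strand, so its CPM may hold reads of those genes. For these reasons every direction below is that of the libraries labelled knockout. By sums, macrophage markers exceeded those of the labelled cell type: 19 macrophage markers summed to 32877 to 53811 CPM per library and 13 osteoblast markers to 4164 to 16884 CPM. The macrophage sum rests largely on Lyz2, at 16416 to 34460 CPM per library. In control 2 it was 17736 of 32877 CPM, where the osteoblast markers summed to 16884 CPM. The osteoblast list includes the collagen genes Col1a1 and Col1a2, which fibroblasts also express. The lineage factor Runx2 was at 18.4 to 49.9 CPM and Sp7 at 3.29 to 46.2 CPM, while Bglap, the osteocalcin gene of mature osteoblasts, was at or under 0.58 CPM except in knockout-labelled 1 (42.3 CPM). Both libraries numbered 4 stood apart: 11 osteoclast markers summed to 10329 CPM in control 4 and 6786 CPM in knockout-labelled 4 against 172 to 279 CPM in the other 6 libraries. Mmp9 alone gave 5067 CPM of the sum in control 4 and 3923 CPM in knockout-labelled 4, against 1.33 to 52.6 CPM elsewhere. It is also on the list of NF-kappaB effector targets used below, so this sum is not separate from that list. Results are therefore given with all 8 libraries and with numbers 1 to 3 alone. In bulk RNA, fewer cells of a type and less RNA per cell cannot be told apart.

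The promoters of 7 of the 10 genes were found in RefSeq windows on GRCm38.p6, from 250 bases before to 50 after the start, and 5 of the 7 held the kappaB consensus motif, the letters NF-kappaB pairs bind, on either strand. Among the genes tested that have a window, 1249 of 10207 (12.2%) held it. Nfkb1, Relb and Nfkbiz had no window. A match is a description of letters and not a measured binding site. The 5 windows are shown because they hold the motif in front of genes whose levels are described below, each written 5′ to 3′ along the gene with matches in capitals.
Nfkb2, chr19:46304487-46304786, plus strand: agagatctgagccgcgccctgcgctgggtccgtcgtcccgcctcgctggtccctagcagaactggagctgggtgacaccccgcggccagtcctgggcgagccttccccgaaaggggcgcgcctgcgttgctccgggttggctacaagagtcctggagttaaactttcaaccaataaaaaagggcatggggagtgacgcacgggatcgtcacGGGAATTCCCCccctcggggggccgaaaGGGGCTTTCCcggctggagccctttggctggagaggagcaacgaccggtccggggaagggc
Nfkbia, chr12:55492598-55492897, minus strand: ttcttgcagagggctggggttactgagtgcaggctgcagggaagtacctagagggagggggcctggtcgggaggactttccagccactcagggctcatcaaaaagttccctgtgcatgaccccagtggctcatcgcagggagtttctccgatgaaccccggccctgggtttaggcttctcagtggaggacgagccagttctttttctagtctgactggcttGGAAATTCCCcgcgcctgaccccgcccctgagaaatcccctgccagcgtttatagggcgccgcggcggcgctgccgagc
Nfkbie, chr17:45555450-45555749, plus strand: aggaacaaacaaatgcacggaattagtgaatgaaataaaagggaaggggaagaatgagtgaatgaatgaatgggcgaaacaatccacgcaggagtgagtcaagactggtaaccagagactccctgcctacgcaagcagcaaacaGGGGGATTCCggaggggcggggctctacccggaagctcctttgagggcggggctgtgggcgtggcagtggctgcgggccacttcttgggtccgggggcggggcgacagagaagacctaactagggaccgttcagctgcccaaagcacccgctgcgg
Tnfaip3, chr10:19015361-19015660, minus strand: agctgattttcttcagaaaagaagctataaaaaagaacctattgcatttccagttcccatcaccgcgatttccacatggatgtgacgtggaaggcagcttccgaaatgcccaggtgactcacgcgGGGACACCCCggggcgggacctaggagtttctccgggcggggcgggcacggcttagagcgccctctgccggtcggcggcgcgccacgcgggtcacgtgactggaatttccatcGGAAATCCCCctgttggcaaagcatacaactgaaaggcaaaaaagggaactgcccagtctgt
Rel, chr11:23770920-23771219, minus strand: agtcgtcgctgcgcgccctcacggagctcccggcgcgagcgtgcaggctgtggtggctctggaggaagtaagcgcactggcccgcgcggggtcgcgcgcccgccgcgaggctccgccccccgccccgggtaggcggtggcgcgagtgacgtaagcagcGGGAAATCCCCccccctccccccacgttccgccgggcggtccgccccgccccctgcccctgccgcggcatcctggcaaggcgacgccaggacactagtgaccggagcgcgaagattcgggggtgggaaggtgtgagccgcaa
In Nfkb2 the capitals mark GGGAATTCCC, whose first base lies 39 bases before the start, an overlapping match beginning 1 base further on, and GGGGCTTTCC at 11 bases before it. A second Nfkb2 window, at chr19:46305445-46305744, also held GGGACTTTCC. The single match in Nfkbia began 29 bases before the start and read GGGAATTTCC on the strand opposite the gene. The Birc3 and Traf1 windows did not hold these letters.

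No gene of the 10 differed past the threshold between genotype labels when all 8 libraries were compared. With edgeR's quasi-likelihood test, 0 of 10 passed an adjusted p of 0.05, as did 0% of the 12837 genes tested, and the adjusted p of each of the 10 was 0.9999. At an unadjusted p under 0.05 the count was also 0 of 10, with edgeR (4.92% of all genes), DESeq2 (6.71%) and limma-voom (5.15%). None of the 10 had groups free of overlap, where 1.27% of all genes lay lower and 2.32% higher without overlap. The log2 fold changes were nevertheless negative for 8 of the 10, with a median of −0.30 against −0.02 over all genes tested. With libraries paired by number the count was again 0 of 10 (background 1.18% lower and 1.31% higher), while 9 of 10 had an unadjusted p under 0.05 against 20.9% of all genes. The lowest adjusted p of the 10 in that paired fit was 0.0604, for Nfkb2. Counts of the 10, here and below, are not counts of independent genes. Among Nfkb2, Relb, Nfkbia, Birc3 and Traf1 the Pearson r of log2 CPM was 0.954 to 0.992 over 8 libraries. In numbers 1 to 3 it was 0.803 to 0.980. Over 8 libraries Nfkb1 followed these genes less, at r of 0.172 to 0.324, and Rel ran against them, at −0.666 to −0.611. In numbers 1 to 3 Nfkb1 was at 0.282 to 0.554 and Rel at −0.537 to −0.014.

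**Figure D1:**
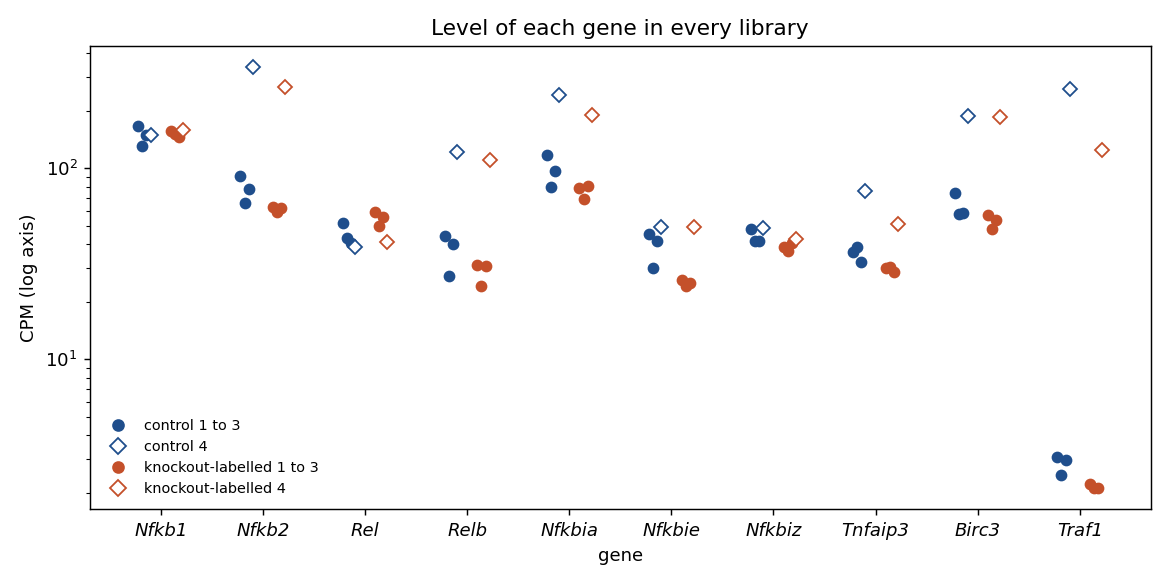
CPM on a log axis for each of the 10 genes, 1 point per library. Circles are libraries 1 to 3 and open diamonds the libraries numbered 4, with controls in blue and libraries labelled knockout in orange. For Nfkb2, Relb, Nfkbia, Nfkbie, Tnfaip3, Birc3 and Traf1 both diamonds lie above all circles, and Traf1 spans from 2.11 to 259.9 CPM.

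Of the DNA-binding subunits, Nfkb1 varied little between libraries. It encodes p105, the precursor of p50 and the usual partner of RelA, and lies on chromosome 3 of GRCm38 from 135584655 to 135691547. It stood at 165.8, 130.6, 148.7 and 148.6 CPM in the 4 controls and at 156.0, 151.4, 146.3 and 158.7 CPM in knockout-labelled 1 to 4. The groups overlapped fully and the libraries numbered 4 lay among the others. The means were 148.4 ± 14.4 CPM (SD, n = 4) and 153.1 ± 5.5 CPM (SD, n = 4), with a log2 fold change of 0.04 (SE 0.10) and an exact two-sided permutation p of 0.571, where the smallest possible is 0.0286.

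Nfkb2, which encodes the p100 precursor of p52 and serves the noncanonical arm, was at 90.4, 65.9, 78.0 and 338.4 CPM in the 4 controls. In the libraries labelled knockout it was at 62.3, 58.6, 61.8 and 266.8 CPM. Each was below the control of the same number, at 0.689, 0.889, 0.793 and 0.789 of it, but control 4 and knockout-labelled 4 stood so far above the rest that the groups overlapped. The log2 fold change was −0.35 (SE 0.72), or −0.35 (SE 0.07) when paired. The gene lies on chromosome 19 from 46304320 to 46312385, and 299 of its 4584 exon bases are shared with Psd and 531 with the long noncoding RNA AC114539.1, both on the opposite strand. Psd had 724 and 779 counts in control 4 and knockout-labelled 4 against 123 to 179 elsewhere. Strand use in counting being unknown, reads in the shared bases cannot be assigned, and their part in the level of Nfkb2 was not tested.

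Relb encodes the partner of p52. Its values were 44.2, 27.1, 39.9 and 121.9 CPM in the 4 controls, and 31.0, 24.0, 30.6 and 110.9 CPM in knockout-labelled 1 to 4. Both libraries numbered 4 were again the highest, and control 2 lay below knockout-labelled 1 and 3. The ratios within pairs were 0.701, 0.886, 0.766 and 0.909, and the log2 fold change was −0.25 (SE 0.64), or −0.30 (SE 0.08) when paired.

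Rel ran the other way. It encodes c-Rel, a subunit best known in lymphoid and myeloid cells, and stood at 51.5, 43.1, 40.4 and 38.9 CPM in the 4 controls and at 59.2, 49.8, 55.2 and 41.1 CPM in knockout-labelled 1 to 4. It was higher in 4 of 4 pairs, by ratios of 1.15, 1.16, 1.37 and 1.06, and it was the only one of the 10 to be so, where 15.4% of all genes were higher in 4 of 4. The groups overlapped, since control 1 lay above knockout-labelled 2 and 4. The log2 fold change was 0.24 (SE 0.15), with an exact two-sided permutation p of 0.171. Unlike the noncanonical pair, Rel was not raised in the libraries numbered 4, where it was lowest in each group.

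Among the inhibitors, Nfkbia encodes IkB-alpha, the classical brake that NF-kappaB induces within its own feedback loop. It was at 117.7, 79.5, 97.0 and 241.3 CPM in the 4 controls and at 78.7, 68.6, 80.7 and 190.0 CPM in knockout-labelled 1 to 4. All pairs were lower, at 0.668, 0.863, 0.832 and 0.787 of control, and the means were 133.9 ± 73.3 CPM and 104.5 ± 57.3 CPM (SD, n = 4 each). The log2 fold change was −0.36 (SE 0.45), or −0.35 (SE 0.07) with an edgeR adjusted p of 0.0633 when paired.

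Nfkbie encodes IkB-epsilon, a slower brake, and showed the largest difference in numbers 1 to 3 among the 10. It was at 45.3, 29.9, 41.7 and 49.2 CPM in the 4 controls and at 26.1, 24.1, 25.0 and 49.2 CPM in knockout-labelled 1 to 4. The ratios were 0.577, 0.807 and 0.600 in pairs 1 to 3, whereas pair 4 was level. In numbers 1 to 3 the knockout-labelled libraries lay close to each other and below all 3 controls. Over 8 libraries the log2 fold change was −0.42 (SE 0.27), with an exact two-sided permutation p of 0.171.

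Nfkbiz encodes IkB-zeta, a nuclear member of the family that works with p50 at secondary target genes. It varied least of the inhibitors, between 41.5 and 48.8 CPM in the controls and between 37.0 and 42.8 CPM under the knockout label. The groups overlapped through knockout-labelled 4 alone. The ratios were 0.813, 0.892, 0.978 and 0.876, and the log2 fold change was −0.17 (SE 0.11), with an exact two-sided permutation p of 0.114.

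Tnfaip3 encodes A20, an enzyme that edits ubiquitin chains and shuts down signalling from TNF and Toll-like receptors. It stood at 36.5, 38.4, 32.1 and 76.4 CPM in the 4 controls and at 30.1, 30.5, 28.7 and 51.3 CPM in knockout-labelled 1 to 4. Pair 4 gave the lowest ratio, 0.672, and pairs 1 to 3 gave 0.826, 0.793 and 0.892. The log2 fold change was −0.38 (SE 0.32), or −0.34 (SE 0.08) with an adjusted p of 0.0833 when paired. The unpaired value moved to −0.029 without control 4 and −0.62 without knockout-labelled 4.

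Birc3 and Traf1 are induced relays. Birc3 encodes cIAP2, a ubiquitin ligase of the TNF receptor complex that also keeps the noncanonical arm in check, and was at 74.3, 57.4, 57.9 and 188.2 CPM in the 4 controls and at 56.9, 48.0, 53.8 and 184.5 CPM in knockout-labelled 1 to 4. Its ratios were 0.766, 0.836, 0.929 and 0.980 in pairs 1 to 4, and the log2 fold change was −0.14 (SE 0.57). Traf1, an adaptor that binds cIAP proteins, was low in numbers 1 to 3, at 3.07, 2.47 and 2.97 CPM in the controls and 2.23, 2.12 and 2.11 CPM in those labelled knockout, from 36 to 58 counts. In control 4 it reached 259.9 CPM and in knockout-labelled 4 124.5 CPM. Its ratio in pair 4 was 0.479, and the log2 fold change of −1.04 carried an SE of 1.98. For Nfkb2, Relb, Nfkbia, Birc3 and Traf1 the 8-library fold change turned positive when control 4 was left out, and the count of the 10 with a negative value fell from 8 to 3.

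**Figure D2:**
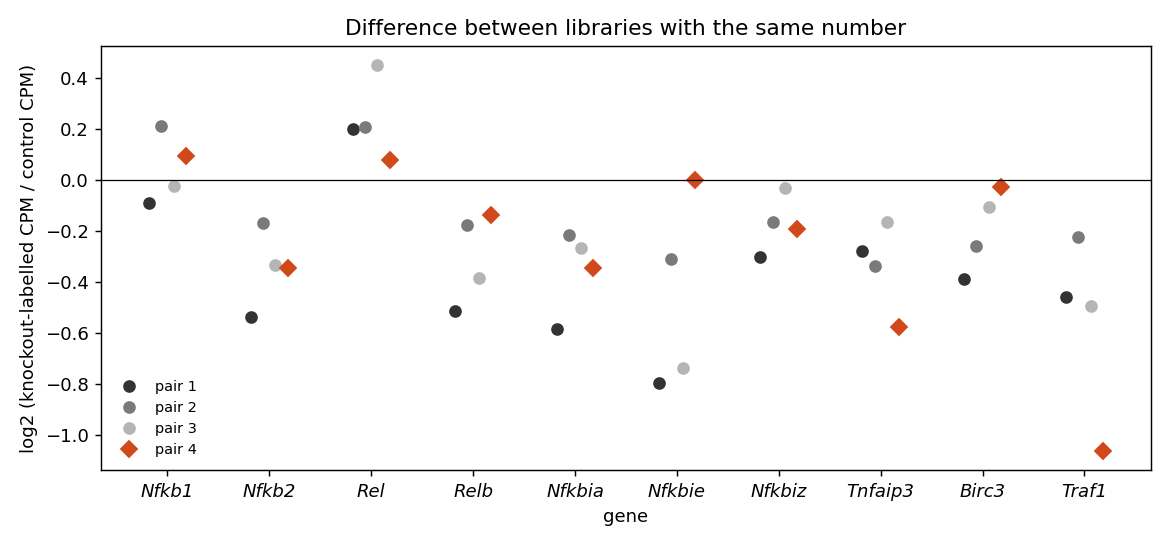
Log2 ratio of the CPM of each library labelled knockout to that of the control with the same number, for the 10 genes. Points are pairs 1 to 3 (grey circles) and pair 4 (orange diamonds). A total of 7 genes lie below 0 in 4 of 4 pairs, Rel lies above 0 in 4 of 4, and Traf1 in pair 4 is the lowest at a ratio of 0.479.

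By pair, 7 of the 10 were lower in 4 of 4 pairs (Nfkb2, Relb, Nfkbia, Nfkbiz, Tnfaip3, Birc3 and Traf1), where 13.4% of all genes tested were. The members' median log2 ratio was −0.41, −0.19, −0.21 and −0.16 in pairs 1 to 4, against medians of −0.01 to 0.01 over all genes. Of the 10, 9, 8, 9 and 7 were lower in pairs 1 to 4.

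In numbers 1 to 3 alone, a choice made with the position of the libraries numbered 4 known, Nfkbie fell and the other 9 did not pass. Its log2 fold change was −0.63 (SE 0.14), with an adjusted p of 0.0241 by edgeR's quasi-likelihood test, where 6.29% of 12919 genes were called lower and 7.78% higher. The call was lost without control 3 or without knockout-labelled 1, 2 or 3, with adjusted p of 0.0753 to 0.107 in edgeR, and when control 2 was left out 4 of the 10 passed, all lower. Of the 10, 6 had no overlap between groups in numbers 1 to 3, all lower in the libraries labelled knockout (Nfkb2, Nfkbie, Nfkbiz, Tnfaip3, Birc3 and Traf1), against 16.5% of all genes lower and 18.2% higher. With 3 against 3 the exact permutation test cannot go below 0.1, which is the value each of these gave.

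With numbers 1 to 3 paired, 6 of the 10 fell (Nfkb2, Relb, Nfkbia, Nfkbie, Tnfaip3 and Birc3) and Rel rose, beside a background of 11.9% lower and 12.3% higher. The count of 7 became 4 without number 1, 5 without number 2 and 0 without number 3. Nfkbie was at −0.61 (SE 0.10, edgeR adjusted p = 0.00184), Nfkb2 at −0.35 (SE 0.07, adjusted p = 0.00635), Nfkbia at −0.35 (SE 0.07, adjusted p = 0.00848) and Relb at −0.36 (SE 0.08, adjusted p = 0.0114). Tnfaip3 and Birc3 were at −0.26 and −0.25, and Rel was at 0.29 (SE 0.07, edgeR adjusted p = 0.0135). Nfkb1 (0.04), Nfkbiz (−0.16) and Traf1 (−0.39, SE 0.25) did not pass. In the same libraries 11 immediate early and dissociation genes summed to 1200 to 1393 CPM in those labelled knockout against 1930 to 2343 CPM in controls, and 11 cell-cycle genes to 1143 to 1278 CPM against 363 to 586 CPM. The 19 macrophage markers summed to 33230 to 36769 CPM against 32877 to 43289 CPM. Of these sums Lyz2 alone gave 16416 to 18887 CPM against 17736 to 24427 CPM. In this paired fit 6 of the 19 rose and 5 fell, so the sum does not stand for each marker. The 10 neutrophil markers, 8 of them under 1 CPM in every library, summed to 120 to 128 CPM against 317 to 381 CPM, nearly all of it Mmp8. The part of these marker genes in the NF-kappaB values was not tested.

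Ratios between subunits did not pass a test over 8 libraries. The level per kb of exon divides CPM by all exon bases of a gene, joined over its transcripts in GENCODE M21. That length was 12061 bases over 10 transcripts for Nfkb1 and 4584 bases over 8 for Nfkb2. It can exceed the length of the RNA that the cells make, so levels and ratios between genes depend on it. Comparisons of the same ratio between libraries do not. The ratio of Nfkb2 to Nfkb1 on that scale was 1.44, 1.33 and 1.38 in controls 1 to 3, 1.05, 1.02 and 1.11 in the libraries labelled knockout with those numbers, and 5.99 and 4.42 in control 4 and knockout-labelled 4. It was lower in 4 of 4 pairs, by −0.45, −0.38, −0.31 and −0.44 on the log2 scale, although over 8 libraries the exact two-sided permutation p was 0.457 and the libraries numbered 4 lay far from the rest. Without control 4 the mean difference in this log2 ratio turned from −0.40 to 0.13. The ratio of Rel to Rela, the gene of the main canonical subunit, was 0.167, 0.161, 0.134 and 0.148 in controls 1 to 4 and 0.245, 0.197, 0.224 and 0.144 in the libraries labelled knockout. It was higher in pairs 1 to 3 and level in pair 4. Its exact two-sided permutation p was 0.114 over 8 libraries and 0.1 in numbers 1 to 3. Without knockout-labelled 4, a library of the level pair, it was 0.0286, the smallest that test can give. With any other single library left out it was 0.114 to 0.229.

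**Figure D3:**
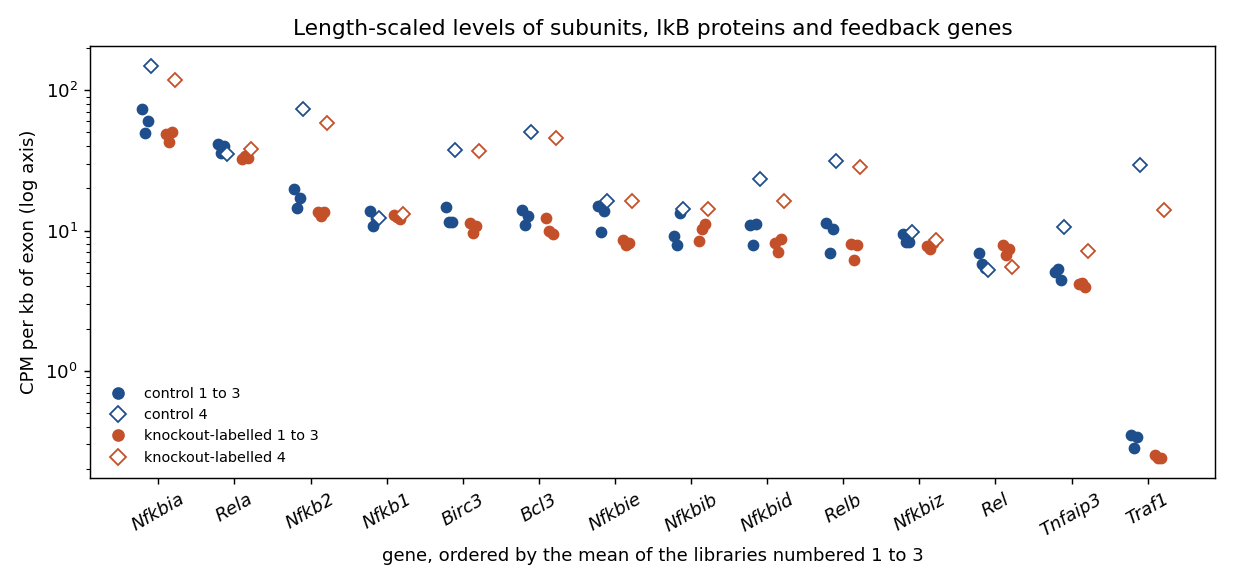
CPM per kb of exon on a log axis for the 10 genes and for Rela, Nfkbib, Nfkbid and Bcl3, ordered by their mean in numbers 1 to 3. Circles are libraries 1 to 3 and open diamonds the libraries numbered 4. Nfkbia leads in every library. Both diamonds lie above all circles for Nfkbia, Nfkb2, Birc3, Bcl3, Nfkbie, Nfkbib, Nfkbid, Relb, Tnfaip3 and Traf1. They do not for Rela, Nfkb1, Nfkbiz and Rel.

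Per kb of exon, the 10 genes were ordered by level over the libraries numbered 1 to 3, on the exon lengths described above. The order began with Nfkbia at 54.0 ± 10.9 CPM per kb (SD, n = 6), followed by Nfkb2 at 15.2 ± 2.7, Nfkb1 at 12.4 ± 1.0 and Birc3 at 11.6 ± 1.8. Outside the 10, Rela stood at 36.1 ± 3.8 CPM per kb, between Nfkbia and Nfkb2. Nfkbie stood at 10.5 ± 3.0, Relb at 8.44 ± 1.99, Nfkbiz at 8.21 ± 0.73 and Rel at 6.68 ± 0.96 CPM per kb. From Nfkb2 down to Rel each gene overlapped with the next. The 6 libraries pool both genotype labels, and the order changes between them: Nfkbie was the third in controls 1 to 3 at 12.8 ± 2.6 CPM per kb (SD, n = 3) and lay below Nfkb1 and Birc3 in those labelled knockout at 8.24 ± 0.33 CPM per kb (SD, n = 3). Relb likewise stood above Nfkbiz in the controls, at 9.54 against 8.69 CPM per kb, and below it under the knockout label, at 7.34 against 7.74 CPM per kb. Tnfaip3 at 4.53 ± 0.54 and Traf1 at 0.283 ± 0.048 CPM per kb lay below without overlap, as Nfkbia lay above. In control 4 and knockout-labelled 4, Nfkb2 stood at 73.8 and 58.2 and Traf1 at 29.5 and 14.1 CPM per kb.

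The libraries numbered 4 stood apart in most of these genes. Both lay above all 6 others for 7 of the 10 (Nfkb2, Relb, Nfkbia, Nfkbie, Tnfaip3, Birc3 and Traf1), where 34.2% of all genes tested did, and for none of the 10 did both lie below, where 33.8% of all genes did. Nfkb1, Rel and Nfkbiz were not among the 7, nor was Rela, at 107.8 and 117.6 CPM against 99.7 to 127.1 CPM elsewhere. Bcl3, a nuclear IkB protein that partners p52, was at 123.8 and 113.0 CPM against 23.5 to 34.8 CPM, and the interleukin-1 gene Il1b at 292 and 234 CPM against 6.14 to 30.6 CPM. Tnf itself was lower there, at 3.85 and 4.15 CPM against 15.0 to 33.6 CPM. Beside the osteoclast marker sums given above, the 19 macrophage markers summed to 39020 and 53811 CPM in control 4 and knockout-labelled 4. Lyz2 alone gave 20611 and 34460 CPM of these sums. The 13 osteoblast markers were at their lowest there, with sums of 6440 and 4164 CPM where the other 6 libraries had 7713 to 16884 CPM, and 5 endothelial markers at their highest, at 24.3 and 33.3 CPM against 7.39 to 11.2 CPM, with Tek at 0 in every library. The part of these cell types in the levels of the 10 genes was not tested, and no label marks these libraries as different.

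**Figure D4:**
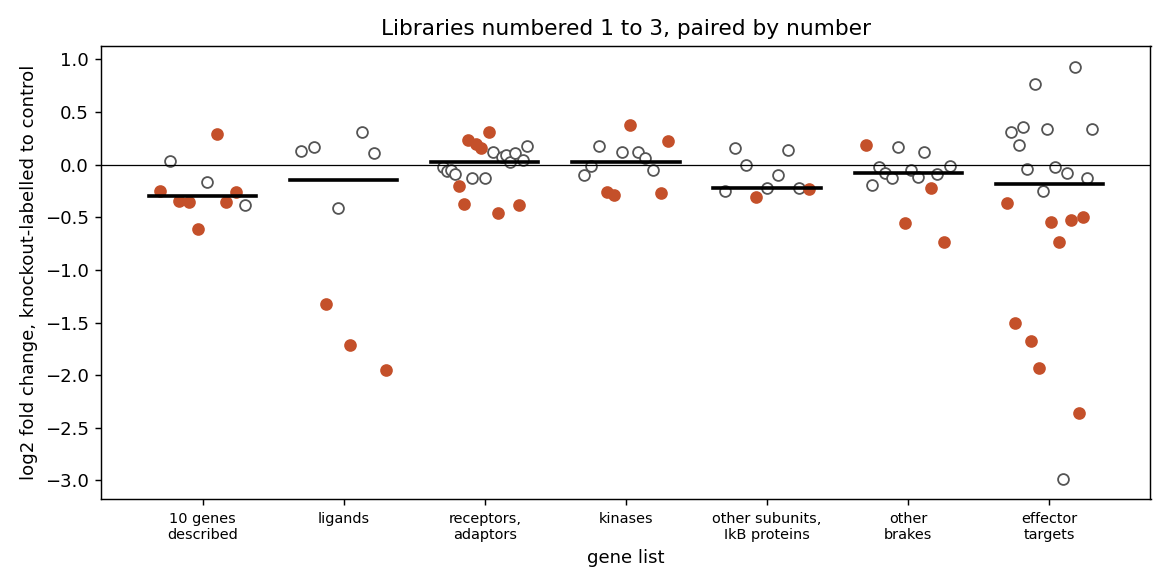
Log2 fold change in the paired comparison of the libraries numbered 1 to 3, 1 point per gene, by pathway list. Filled orange points passed an adjusted p of 0.05, open points did not, and black bars are list medians. The bar of the 10 genes lies at −0.30 and those of receptors and kinases at 0.03 and 0.02.

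The rest of the pathway was read from 6 lists. With all 8 libraries and edgeR, 0 members of any list passed (background 0%), and Tnip3, an A20-binding inhibitor, had the smallest unadjusted p of all of them at 0.0352 (log2 fold change −0.52, SE 0.21). With 8 libraries paired, 3 of the 86 list genes tested passed, 1 higher and 2 lower, beside the background of 1.31% higher and 1.18% lower: the endotoxin receptor gene Tlr4 rose (0.33), and Tank, an adaptor of the kinase TBK1, and the chemokine gene Ccl5 fell (−0.28 and −1.51). These calls were lost without number 1, 2 or 3, where the count of that fit over all genes went from 319 to 0. Ccl5 was near the floor in numbers 1 to 3, at 0.163 to 1.81 CPM from 3 to 31 counts. In control 4 and knockout-labelled 4 it was at 167.0 and 57.9 CPM. Tlr4, Tank, Ccl5 and the genes named beside the libraries numbered 4 were picked after their values were seen.

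In numbers 1 to 3 paired, 24 of the 86 list genes fell and 7 rose, where 11.9% of all genes were called lower and 12.3% higher. Pair 4, which that fit does not use, ran in the same direction for 7 of the 24 and 6 of the 7, and over all genes called for 43.6% of those that fell and 62.2% of those that rose. Of the 6 members of the NF-kappaB set that fell, 5 were lower in pair 4. The shares of 11.9% lower and 12.3% higher are the background of each list count below. A count near them is not a result about its list.

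Of 8 ligands tested 3 fell and 0 rose. Tnfsf11, which encodes RANK ligand, stood at 3.92, 7.14 and 4.83 CPM in the first 3 controls and at 0.93, 2.23 and 1.72 CPM in knockout-labelled 1 to 3, a log2 fold change of −1.71 (SE 0.24, edgeR adjusted p = 0.000591). Tnfsf9, the 4-1BB ligand gene, was at −1.95 (SE 0.28) and Il1b at −1.32 (SE 0.24). Tnfsf9 was higher in pair 4, at a ratio of 1.31, and Il1b lower, at 0.801. In pair 4 Tnfsf11 also ran the other way, at 0.49 CPM in control 4 and 1.09 CPM in knockout-labelled 4. Tnfsf12, which encodes TWEAK, did not pass at 0.31.

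Receptors and adaptors were split, with 4 of 21 higher and 4 lower. Ripk1, a kinase of the TNF receptor complex, rose slightly (0.16, edgeR adjusted p = 0.0485). Its groups did not overlap with all 8 libraries, higher under the knockout label, where 2.32% of all genes were. Controls lay between 124.3 and 138.7 CPM and the libraries labelled knockout between 139.8 and 159.5 CPM. Traf3, which restrains the noncanonical arm, fell by 0.38 on the log2 scale, and Irak2, a kinase below the interleukin-1 receptor, fell by 0.37, but in pair 4 their ratios were 1.02 and 1.10. Of 12 kinases and their partners 2 rose and 3 fell. Map3k8 (0.37) and Tbk1 (0.23) rose, and Ikbkg, the regulatory subunit of IkB kinase, fell by 0.26, with ratios in pair 4 of 1.17, 1.09 and 1.01.

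Of 9 other subunits and IkB proteins, 2 fell and 0 rose. Rela was at 127.1, 110.0 and 123.8 CPM in the first 3 controls and at 99.7, 104.2 and 101.5 CPM in knockout-labelled 1 to 3, a log2 fold change of −0.24 (SE 0.06, edgeR adjusted p = 0.0191). In number 4 the knockout-labelled value was the higher, as given above. Nfkbid, a nuclear IkB protein, was at −0.31, and Nfkbil1 did not pass. Of 14 other brakes 1 rose and 3 fell. Tnip3 was at −0.74 and Pdlim2, a ligase for RelA, at −0.56, whereas Cyld, a deubiquitinase, rose by 0.19. Pair 4 ran the other way for all 3, at ratios of 1.13 for Tnip3, 1.36 for Pdlim2 and 0.970 for Cyld.

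Of the 28 effector targets 22 were expressed enough to test, and 9 fell and 0 rose in numbers 1 to 3 paired, with a median of −0.19 against −0.0036 over all genes. Junb, a subunit of the transcription factor AP-1 that also belongs to the immediate early genes, was at 438.8, 325.6 and 407.2 CPM in the first 3 controls and at 246.6, 207.9 and 242.3 CPM in knockout-labelled 1 to 3. In number 4 it was at 461.4 CPM in the control and 496.6 CPM in the library labelled knockout, the opposite order. The chemokine gene Ccl2 did not pass (0.39 when all 8 were paired), although its groups did not overlap with all 8 libraries, higher under the knockout label, where 2.32% of all genes were. It was at 12.5, 9.39, 12.5 and 11.5 CPM in the 4 controls and at 12.5, 13.5, 16.5 and 17.9 CPM in knockout-labelled 1 to 4, so control 3 and knockout-labelled 1 nearly touched. Ptx3 did not pass. The background for all list counts in this comparison is the same 11.9% lower and 12.3% higher.

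Over all 8 libraries, the 5 genes outside the set whose log2 CPM followed the mean standardized level of the 10 most closely, out of 9206 genes with a mean of at least 10 CPM, were Atg4d, Tmem208, Alg9, Pqlc3 and Mtg2. Their Pearson r was 0.984 to 0.989 over 8 libraries, which the libraries numbered 4 dominate, and 0.862 to 0.995 over the 6 libraries numbered 1 to 3. Tmem208, for example, stood at 19.95, 14.7, 16.7 and 34.1 CPM in the 4 controls and at 15.0, 12.9, 13.9 and 29.4 CPM in knockout-labelled 1 to 4. The r values describe these libraries, and all genes in a library share its depth and composition.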

How the data were processed

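The authors deposited whole-number read counts per gene symbol for 8 libraries. Reads were aligned to GRCm38 (mm10) and counted, with STAR 2.7.11b and featureCounts 2 named in the submitters' processing notes, while the annotation counted, strand use and the handling of reads with several alignments are not given in the sources used here. Groups and numbers came from the sample titles. Within groups, pairs of libraries differed beyond sampling noise (chi-square per degree of freedom 8.56 to 307), so none was treated as a copy of another. No label ties a library to an animal, so the spread behind each p-value may be technical in part. Total counts of 14347495 to 19065421 put 421 or more counts behind each value of the 10 genes except Traf1.

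The members and lists were chosen with earlier results of these data known. edgeR 4.0.16 in R 4.3.3 was run on 12837 genes that passed filterByExpr, with TMM scaling and a quasi-likelihood F test of genotype, adjusted by Benjamini-Hochberg over all genes (threshold 0.05). Log2 CPM used a prior count of 2. The scripts were tested on simulated data. DESeq2 1.42.0, limma 3.58.1, other scaling, no filter, left-out libraries and the number as a block were alternatives. Same-numbered libraries correlated after group means were removed (r 0.460 to 0.829 with 8 libraries, 0.161 to 0.376 in numbers 1 to 3, where unlike numbers gave −0.255 to −0.023), so the numbers were taken to pair them, from the data and not a label. Unlike numbers also reached 0.572 with 8 libraries, where control 1 had 0.489 with knockout-labelled 2 and 0.460 with knockout-labelled 1. Removing group means over 3 libraries draws unlike numbers below 0 once like numbers lie above it. The sign of the unlike values thus adds nothing to the pairing. Symbols were matched to GENCODE M21 for loci and exon lengths, and 10 of 10 matched 1 gene.

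Genes named were Sphk2, the 10, up to 3 per list with the smallest unadjusted p, and the 5 most alike; others were picked after their values were seen.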

Additional observations from a re-analysis of the deposited data

Results flagged for a closer look

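A library was marked where its gap to the nearest other of its group of 4, on the log2 CPM scale, exceeded the critical share of the group's range in Dixon's test, a limit that chance passes in about 1 of 20 groups. Of 20 groups (10 genes, 2 genotypes), 8 held such a library, in each case one numbered 4 and the highest. In knockout-labelled 4 these were Nfkb2 at 266.8 CPM, Relb at 110.9 CPM, Nfkbia at 190.0 CPM, Nfkbie at 49.2 CPM, Tnfaip3 at 51.3 CPM, Birc3 at 184.5 CPM and Traf1 at 124.5 CPM. In control 4 it was Traf1, at 259.9 CPM. The 8 are not independent, since the same libraries give all of them.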

How the results depend on the processing

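The count of the 10 genes past the threshold was 0 with RLE size factors, no filter on low counts, DESeq2, limma-voom, the replicate block and each library left out, 1 in numbers 1 to 3 and 7 in numbers 1 to 3 with the replicate block. For numbers 1 to 3 it ranged from 0 to 4 when 1 library was left out, and with the block from 0 to 5 when 1 number was left out. Over all genes the count moved from 0 to 176 with DESeq2, 319 with the replicate block, 1817 in numbers 1 to 3 and 3132 there with the block, and from 0 to 38 with 1 library left out. The median log2 fold change of the 10 ran from −0.77 to 0.14 with 1 library left out, positive only without control 4. So left out, single values ran from −0.0073 to 0.10 for Nfkb1, −1.23 to 0.52 for Nfkb2, −1.03 to 0.40 for Relb, −0.82 to 0.085 for Nfkbia, −0.84 to 0.43 for Birc3, −4.95 to 3.51 for Traf1, −0.62 to −0.029 for Tnfaip3 (the last without control 4), −0.73 to −0.31 for Nfkbie, −0.21 to −0.14 for Nfkbiz and 0.16 to 0.33 for Rel, and the Nfkb2 to Nfkb1 log2 ratio from −0.91 to 0.13. In the same fits the difference in the Rel to Rela log2 ratio ran from 0.28 to 0.54. The cause of these shifts was not tested beyond the position of the libraries numbered 4. With the block and number 1, 2 or 3 left out no gene of all those tested passed, so the 0 of 10 in those fits says nothing of the members. An SE of 0.45 or more for Nfkb2, Relb, Nfkbia, Birc3 and Traf1 limits what the comparison of 8 libraries can show.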
